A study of Mus musculus with 16 samples.

Results

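LPS p16-negative alveolar macrophages (AMs) were compared with PBS p16-positive AMs, with 4 libraries of each out of the 16 libraries in the 4 groups of the series. The comparison covered every gene with at least 30 unique molecular identifiers (UMIs, each a counted transcript molecule) summed over these 8 libraries, which were 4592 of the 7946 genes listed. AMs were sorted from lungs of female C57BL/6 mice (C57BL6 in the labels) as CD45+CD11c+Siglec-F+ cells. The mice had inhaled an aerosol of PBS, or of E. coli lipopolysaccharide (LPS) in PBS at 0.5 mg/ml, for 30 min, 3 times a week over 10 weeks. The age of these mice is not given in the labels. Cells were fixed in methanol, stained inside for the p16 protein and sorted as high (p16-positive) or low (p16-negative) for it, a method called INs-seq, with 5000 cells per sample. Libraries were made from pooled samples by a bulk form of MARS-seq, which reads the 3′ ends of transcripts. Both factors differ between the groups compared, and they differ in opposite senses: LPS p16-negative cells had the stimulus and little p16, while PBS p16-positive cells had no stimulus and much p16. In this comparison alone the part of LPS and the part of p16 cannot be told apart, so each of these factors is also given as a separate step through the other groups.

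AMs are the resident phagocytes of the air spaces, which clear surfactant and inhaled particles through their lysosomes. LPS, a component of the outer membrane of Gram-negative bacteria, is sensed through Toll-like receptor signalling and drives acute phase, complement and chemokine genes. The p16 protein, encoded by Cdkn2a, inhibits the cyclin-dependent kinases that open the cell cycle and is used as a mark of senescent cells. The alveolar wall beside these macrophages is a dense capillary bed, whose endothelial cells carry the junction protein claudin-5, the receptor complex of endoglin and ALK1 for BMP ligands, and the flow-induced transcription factor KLF2.

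The libraries differed in depth, and the p16 label could not be checked on RNA. The 4 LPS p16-negative libraries held 100960 to 401857 UMIs and the PBS p16-positive libraries 13861 to 433490, the lowest being replicate 1, which stood at -119 on the first principal component (38.7% of variance) where the other libraries of both groups lay between -3.57 and 27.1. In that shallow library a gene without a UMI may still have had up to 3, equal to 216 CPM (UMIs of a gene scaled to the same library total), and a single secretory airway gene, Scgb1a1, took 22.3% of its UMIs. Cdkn2a had 0, 6, 2 and 1 UMIs in LPS p16-negative and 0, 0, 4 and 3 UMIs in PBS p16-positive libraries, so it was under the filter and not tested. It had 0, 0, 3 and 5 UMIs in PBS p16-negative and 0, 4, 0 and 30 in LPS p16-positive libraries, and the sort had been on the protein. Its 3′ counts do not separate the p16 forms from other transcripts of the gene. Of the proteins used for the AM gate, Siglecf had 13 and 22 UMIs in the respective groups (log2 fold change -0.58, edgeR adjusted p = 0.813), Itgax, which encodes CD11c, 206 and 66 (1.35, adjusted p = 0.292), and Ptprc, which encodes CD45, 14 and 20 (-0.62, adjusted p = 0.84). Transcripts of the gate proteins were thus sparse in both groups. The lysozyme Lyz2 was at 6778 ± 4262 and 2932 ± 1802 CPM (SD, n = 4), and the summed level of 55 AM identity genes was 20970 to 42340 CPM in LPS p16-negative and 11830 to 23060 CPM in PBS p16-positive libraries. Nothing ties a library to an animal, although the labels call the replicates biological, and every p-value rests on how far these libraries scatter, part of which may be technical. In bulk samples fewer cells of a type and less of its RNA per cell cannot be told apart.

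More genes were called lower than higher in LPS p16-negative AMs. With edgeR's quasi-likelihood test, adjusted by Benjamini-Hochberg over the 4592 genes, 104 genes passed 0.05 (2.26% of genes tested), of which 12 were higher (0.261%) and 92 lower (2%). The called differences ran from 1.54 to 6.45 on the log2 scale in size, where a value of 1 is a doubling. The median SE over all genes was 0.582, so small differences could hardly pass. The signed median over all 4592 genes was 0.065. At an unadjusted p under 0.05 there were 619 genes, 251 higher and 368 lower, where about 230 would be found if none differed. Over all 4592 genes 2484 values were positive and 2108 negative. Without regard to any test, the CPM ranges of both groups did not overlap for 95 genes higher in LPS p16-negative (2.07%) and 271 genes lower (5.9%), and 9 of the 12 higher and 75 of the 92 lower calls had such separate ranges. With the replicate number as a block, since same-numbered libraries of these groups deviated together, if weakly in replicate 1, 366 genes passed: 95 higher (2.07%) and 271 lower (5.9%), all 12 and 92 among them. These counts equal those of separate ranges by coincidence, as 49 higher and 158 lower genes were on both. Replicate numbers also followed depth in both groups, and whether the block took up depth was not tested. Leaving out the shallow PBS p16-positive replicate 1 gave 76 calls, and leaving out both PBS replicate 1 libraries gave 68. The count fell to 22 without LPS p16-negative replicate 4, to 53 and 57 without replicates 3 and 2 of that group, to 30 without PBS p16-positive replicate 2 and to 61 without its replicate 4. All 12 and 92 genes kept their direction in each of the 8 omissions, but 3 of the 12 (Lgi4, Mmp14 and Stac2) and 13 of the 92 kept the call in all 8. A kept direction is partly built in, since the omissions share most libraries with the full fit.

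**Figure D1:**
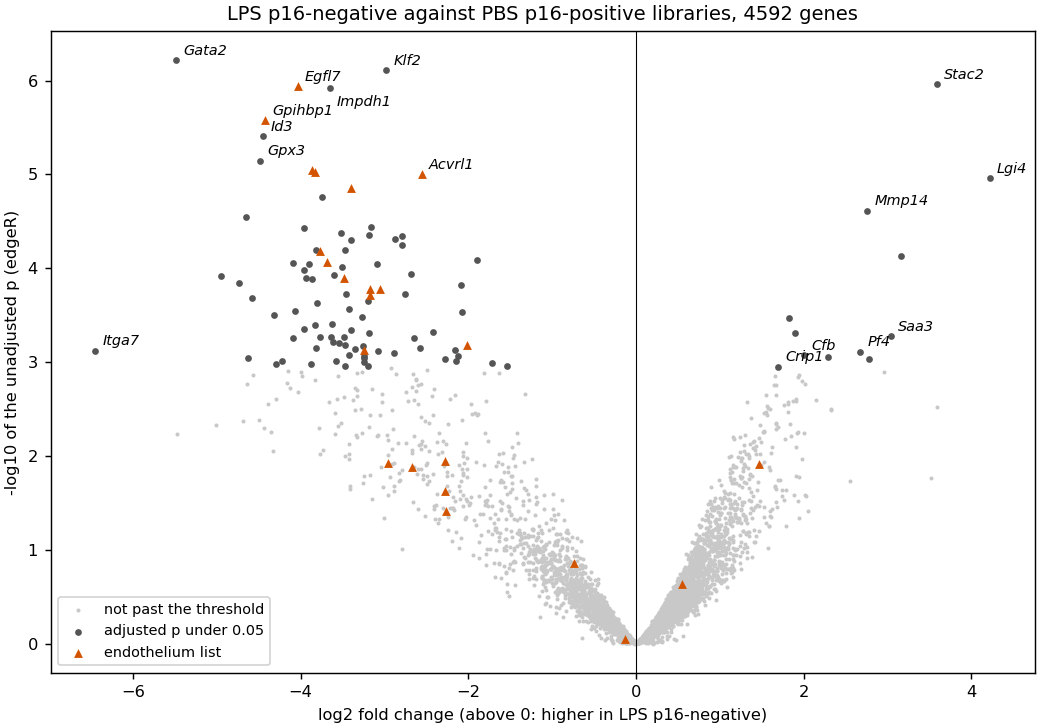
Log2 fold change (x axis, LPS p16-negative against PBS p16-positive, edgeR) and minus log10 of the unadjusted p (y axis) of 4592 genes, with called genes in dark grey, other genes in light grey and members of the endothelial list as orange triangles. Of the 104 called genes 92 lie on the left, where Gata2, Gpihbp1 and Egfl7 combine large differences with low p.

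The 12 genes that rose in LPS p16-negative AMs included acute phase, complement, chemokine and matrix protease genes. Saa3, an acute phase serum amyloid A gene that macrophages induce upon LPS (chr7:46711998-46719615, GRCm38.p6), had 198, 522, 330 and 2643 CPM in the LPS p16-negative and 72.1, 80.9, 207 and 90 CPM in the PBS p16-positive libraries. LPS p16-negative replicate 4 held most of the transcripts, and the ranges overlapped at 198 and 207 CPM. The fold change of Saa3 was 3.04 on the log2 scale (SE 0.77, edgeR adjusted p = 0.0361), but 1.84 without that replicate (adjusted p = 0.228), and the call was also lost without PBS p16-positive replicates 1, 2 or 4. Cfb, complement factor B of the alternative pathway, had 139, 750, 246 and 921 CPM against 72.1, 131, 191 and 136 CPM, with a log2 fold change of 2.01 (SE 0.53, edgeR adjusted p = 0.0453). Pf4, which encodes the chemokine CXCL4 of platelets and some macrophages, had 109, 707, 150 and 744 CPM against 0, 111, 82.7 and 57.7 CPM and differed by 2.67 (SE 0.70, edgeR adjusted p = 0.043). Both overlapped between groups in 1 LPS p16-negative library, replicate 1. Without LPS p16-negative replicate 4 the adjusted p was 0.16 for Cfb and 0.141 for Pf4, and each call was lost in 6 of the 8 omissions.

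Mmp14, a membrane-bound matrix metalloproteinase, did not depend on any 1 library (chr14:54431598-54442456). It had 59, 73, 60 and 137 UMIs in LPS p16-negative and 0, 13, 18 and 18 UMIs in PBS p16-positive libraries, or 452 ± 120 against 66.5 ± 57.6 CPM (SD, n = 4 libraries per group), and rose by 2.75 (SE 0.54, edgeR adjusted p = 0.00747). Stac2, an adaptor protein known from muscle calcium channels (chr11:98036623-98053462), had 634, 772, 619 and 306 CPM against 0, 91, 62 and 41.5 CPM. The lowest LPS p16-negative value was thus above the highest PBS p16-positive value, and Stac2 rose by 3.59 (SE 0.57, edgeR adjusted p = 0.00111). Lgi4, a secreted protein known from peripheral glia (chr7:31058909-31070935), had 11, 16, 13 and 38 UMIs against 0, 0, 3 and 1 UMIs, the largest difference of the 12 at 4.22 (SE 0.78, edgeR adjusted p = 0.00416). In the omissions of single libraries the highest adjusted p was 0.0398 for Mmp14, 0.0138 for Stac2 and 0.0398 for Lgi4.

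The other 6 higher genes were called with less margin. Plxnd1, a semaphorin receptor, had 1994 ± 768 against 631 ± 218 CPM (log2 1.90, edgeR adjusted p = 0.0353), and Crip1, a small LIM-domain protein, 4578 ± 1556 against 1685 ± 466 CPM (1.70, adjusted p = 0.0493). Both were the most abundant of the 12. Mvd, mevalonate diphosphate decarboxylase of the cholesterol pathway, had 604, 757, 853 and 530 CPM against 72.1, 142, 388 and 238 CPM (1.83, SE 0.44, edgeR adjusted p = 0.0274). Tns4, a focal adhesion protein, had 7, 9, 5 and 17 UMIs against 0, 0, 1 and 4 UMIs (3.16, edgeR adjusted p = 0.0122). Vsig8 had 18, 3, 9 and 29 UMIs against 0, 1, 3 and 6 UMIs (2.78, adjusted p = 0.0462), and Guca1a, a guanylate cyclase activator known from photoreceptors, differed by 2.29 (adjusted p = 0.0459). The ranges of these 6 genes in CPM did not overlap, yet the margin was small. Tns4 lost its call only without PBS p16-positive replicate 2 (adjusted p = 0.0508). The other calls were lost in several omissions. Among these were PBS p16-positive replicate 4 for Vsig8 (adjusted p = 0.159), Guca1a (0.168) and Plxnd1 (0.105), and replicate 2 of that group for Mvd (0.141). Crip1 lost its call in each of the 8 omissions (up to 0.164, without LPS p16-negative replicate 2).

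**Figure D2:**
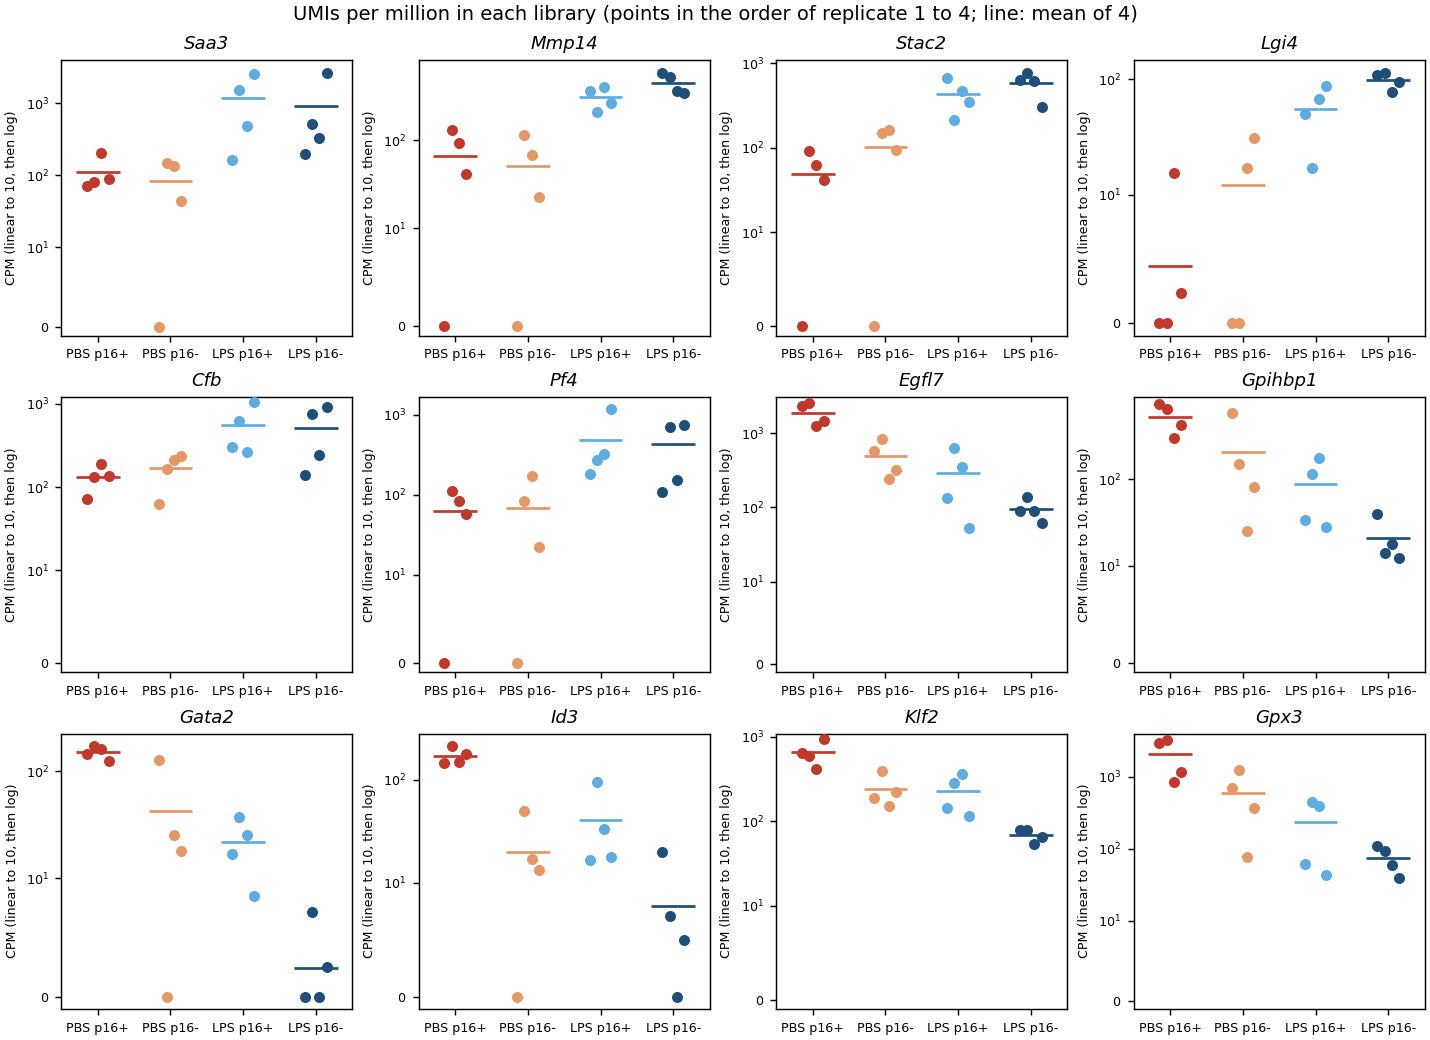
CPM (axis linear up to 10 and logarithmic above) of 12 genes in each library of the 4 groups, in the order of replicates 1 to 4, with lines at the means. The shallow PBS p16-positive replicate 1 lies at 0 for Stac2, Mmp14, Pf4 and Lgi4, and Saa3 of LPS p16-negative replicate 4 lies at 2643 CPM, above the others of its group.

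Promoter sequences are given for genes at both ends of the comparison, to show which motifs stand just before their starts. Windows from 250 bases before to 50 bases after a RefSeq start (build GRCm38.p6) were found for 8 of the 12 higher, 63 of the 92 lower and 3721 of the 4592 genes tested, and were searched on both strands for TATAAA (the letters bound by the TATA-binding protein), GAGGAAGT (a site of PU.1, the macrophage lineage factor) and GGGANTTTC (a kappaB site). The first motif stood in 0 higher and 7 lower genes (11.1%), against 8.44% of genes tested and 15.7% of the 27025 genes of the promoter table. GAGGAAGT stood in 2 higher genes, Pf4 and Vsig8, and in 4 lower genes (6.35%), against 3.79% of genes tested and 3.69% of all genes. GGGANTTTC stood in no called gene, against 1.29% of genes tested. The 150 bases before the start, on the strand of the gene, are shown for an LPS-induced gene (Saa3), for a higher and a lower gene with a PU.1 match (Pf4 and Eng) and for a lower gene with the first motif (Inmt), with matches to these motifs in capitals. ACTTCCTC is the reverse complement of the PU.1 letters. A match is a description of the letters and not a site shown to be bound.
Saa3, chr7:46715677-46715826, minus strand: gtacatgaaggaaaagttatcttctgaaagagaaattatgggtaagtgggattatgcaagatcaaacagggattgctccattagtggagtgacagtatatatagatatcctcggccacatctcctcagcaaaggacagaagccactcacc
Pf4, chr5:90772285-90772434, plus strand: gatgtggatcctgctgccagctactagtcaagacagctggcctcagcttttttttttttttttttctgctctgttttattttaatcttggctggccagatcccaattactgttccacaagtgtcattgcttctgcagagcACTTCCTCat
Eng, chr2:32646445-32646594, plus strand: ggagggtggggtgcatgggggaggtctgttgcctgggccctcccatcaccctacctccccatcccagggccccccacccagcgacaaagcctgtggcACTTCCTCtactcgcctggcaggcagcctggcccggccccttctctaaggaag
Inmt, chr6:55174991-55175140, minus strand: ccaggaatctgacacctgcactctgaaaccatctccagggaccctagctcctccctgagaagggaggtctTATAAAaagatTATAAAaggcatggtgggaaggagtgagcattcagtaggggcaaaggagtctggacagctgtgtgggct
The Saa3 stretch, from a start that lies inside the listed span of the gene, holds none of these motifs. Pf4 and Eng hold 1 PU.1 match each, and Inmt holds 2 matches to TATAAA.

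Among the lists, the most calls were in transcripts of the capillary endothelium. Of 23 tested endothelial genes 14 were lower and 0 higher by edgeR (against 2% of all genes called lower), 21 had a negative fold change, and their median was -3.05 on the log2 scale, against 0.065 for all genes. Without PBS p16-positive replicate 1 their median was -3.12. The summed level of the endothelial list without Car4, which AMs also express, was 1301 to 1815 CPM in LPS p16-negative and 7586 to 15030 CPM in PBS p16-positive libraries, with no overlap. It was 2147 to 9457 CPM in PBS p16-negative and 1309 to 3968 CPM in LPS p16-positive libraries. The 9457 CPM was that of PBS p16-negative replicate 1, which was also shallow (15755 UMIs). With Car4 the summed level was 3581 to 6024 CPM in LPS p16-negative and 9772 to 16150 CPM in PBS p16-positive libraries. Of the 33 listed genes only Aplnr and Erg had no UMI in LPS p16-negative, and none were at 0 in PBS p16-positive. The number of endothelial genes called fell to 6 without LPS p16-negative replicate 4 and to 8 without PBS p16-positive replicate 2, and was 11 to 14 in the other single omissions. The sort on CD45 should remove endothelial cells, and whether such cells or their free RNA entered the libraries was not tested.

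Egfl7, a secreted factor of vessel growth (chr2:26581083-26592682), had 89.1, 136, 90.1 and 62.2 CPM in LPS p16-negative and 2309, 2537, 1235 and 1474 CPM in PBS p16-positive libraries. The lowest PBS p16-positive library, at 1235 CPM, was far above the highest LPS p16-negative library, at 136 CPM, and the fold change was -4.03 (SE 0.64, edgeR adjusted p = 0.00111). Gpihbp1, the anchor of lipoprotein lipase on capillaries (chr15:75596630-75598213), had 4, 2, 3 and 5 UMIs against 10, 64, 57 and 182 UMIs, which is 21.1 ± 12.6 against 521 ± 198 CPM (-4.43, SE 0.74, edgeR adjusted p = 0.00202). Cldn5, the tight junction protein claudin-5 and the most abundant of the endothelial genes that fell (chr16:18776847-18778262), had 258, 386, 372 and 57.2 CPM against 3391, 6318, 2517 and 2538 CPM, a difference of -3.48 (SE 0.77, edgeR adjusted p = 0.0144). For all of these genes the groups were separate, and the shallow replicate 1 of PBS p16-positive was as high as the rest of its group in CPM. The call for Cldn5 was lost without LPS p16-negative replicate 4 (adjusted p = 0.0769) and without PBS p16-positive replicate 2. Egfl7 and Gpihbp1 kept theirs in all 8 omissions, with adjusted p up to 0.0151 and 0.0263.

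Other endothelial genes fell alongside. Rasip1, a regulator of vascular lumen formation, had 13.2 ± 9.02 against 233 ± 52.8 CPM (-3.87, edgeR adjusted p = 0.00416) and Esam, an endothelial adhesion molecule, 16.2 ± 6.97 against 240 ± 140 CPM (-3.83, adjusted p = 0.00416). Podxl, a sialomucin of vessel lumens, differed by -3.40 (adjusted p = 0.00486), the receptor activity modifier Ramp2 by -3.77 (adjusted p = 0.011) and the receptor kinase Tie1 by -3.69 (adjusted p = 0.0126). Pecam1, which encodes CD31, had 1, 16, 15 and 4 UMIs against 5, 79, 78 and 258 UMIs (-3.05, edgeR adjusted p = 0.017). Tie1, Ramp2 and Pecam1 lost the call without LPS p16-negative replicate 4 (adjusted p = 0.0776, 0.0769 and 0.0816), and Pecam1 also without PBS p16-positive replicate 2. Members of the list that did not pass were Cdh5, VE-cadherin, with 5 UMIs over the LPS p16-negative and 40 over the PBS p16-positive libraries (-2.68, adjusted p = 0.183), and Car4, carbonic anhydrase of capillaries and AMs, which ran the other way at 2819 ± 1144 against 1214 ± 724 CPM (1.47, adjusted p = 0.178). Car4 passed with the replicate block (adjusted p = 0.046).

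Genes of BMP signalling through ALK1, a list chosen after their values were seen, were low together with the vessel genes. Of 9 tested genes 7 passed, all lower (against 2% of all genes called lower), with a median of -2.76. This count follows in part from the way the list was chosen. The summed level of the list was 198 to 406 CPM against 1082 to 2517 CPM. Only 2 of the 7 calls held without LPS p16-negative replicate 4, and 2 without PBS p16-positive replicate 2. On the receptor side Acvrl1, which encodes ALK1 (chr15:101128522-101145336), had 158, 85.7, 78.1 and 79.6 CPM against 361, 991, 512 and 757 CPM (-2.55, SE 0.47, edgeR adjusted p = 0.00416), and its co-receptor endoglin, Eng, had 93.7 ± 70.9 against 423 ± 193 CPM (-2.01, adjusted p = 0.0406). Among targets of the pathway Id3, an inhibitor of basic helix-loop-helix factors (chr4:136143822-136145392), had 2, 1, 0 and 2 UMIs against 2, 21, 29 and 77 UMIs (-4.45, SE 0.76, edgeR adjusted p = 0.00256). Id3 in the shallow PBS p16-positive replicate 1 was at 144 CPM, just below the deeper ones at 150 to 212 CPM. That value rests on 2 UMIs, in a library where 3 UMIs equal 216 CPM. The sister gene Id1 differed by -2.75 (adjusted p = 0.0185), and the feedback inhibitor Smad6, with 3 UMIs over LPS p16-negative, had a pooled ratio of 18.6 (PBS p16-positive over LPS p16-negative, 95% counting interval 6.01 to 93.2; edgeR adjusted p = 0.0146). The extracellular proteins Nbl1, a BMP antagonist, and Bmp1, a protease, also fell (adjusted p = 0.0361 and 0.0485). Acvrl1 and Id3 kept the call in all 8 omissions, while Eng lost it in 5 (adjusted p up to 0.188, without PBS p16-positive replicate 2), Bmp1 in 6 and Nbl1 in 4. Id2 (1.07, adjusted p = 0.674) and Smad5 (-0.71, adjusted p = 0.723) did not pass.

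**Figure D3:**
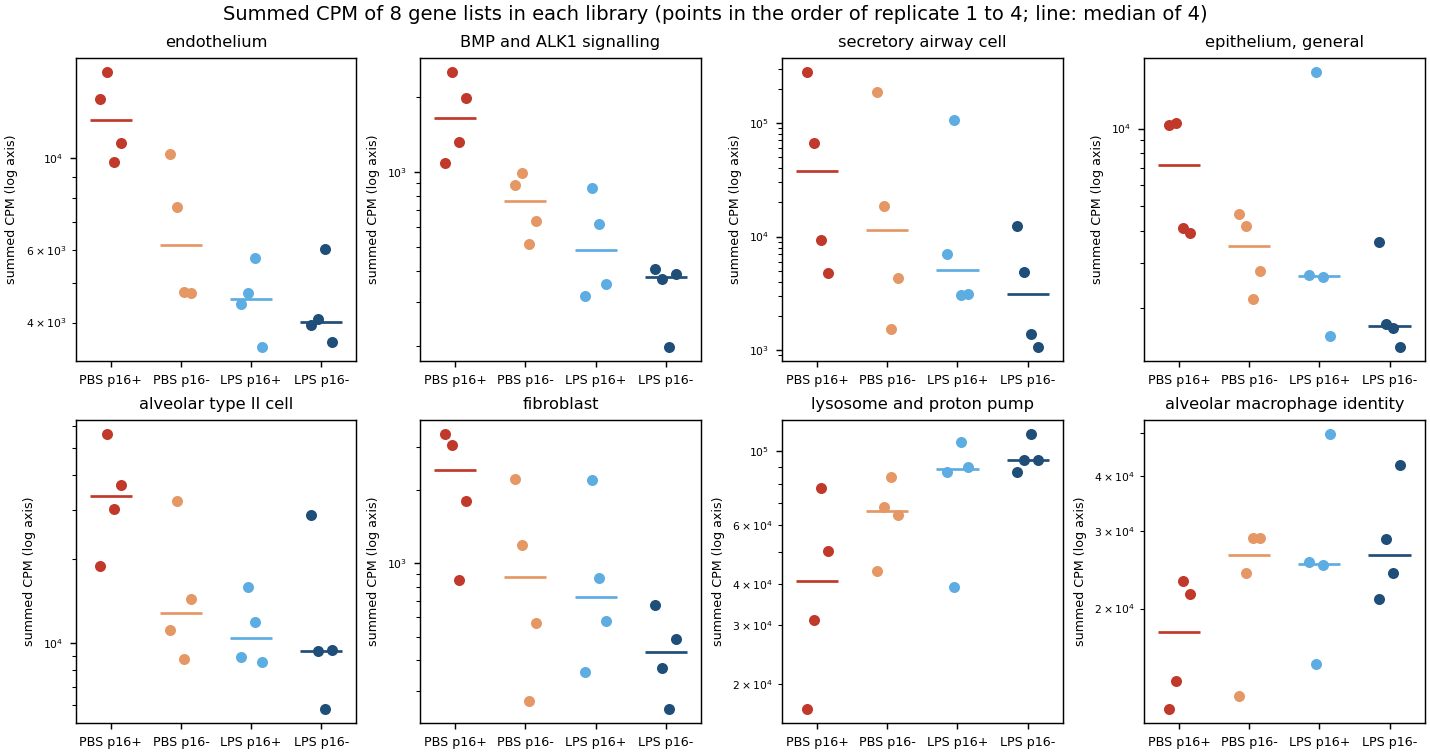
Summed CPM (log axis) of gene lists in each of the 16 libraries, by group. By their medians (lines) the endothelial and the BMP and ALK1 lists are lowest in LPS p16-negative and highest in PBS p16-positive libraries. Single libraries of both LPS groups overlap, and the endothelial list goes down to 3490 CPM in LPS p16-positive and 3581 CPM in LPS p16-negative. The endothelial list plotted here includes Car4.

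The largest single differences were in genes almost without UMIs in LPS p16-negative AMs. Gata2, a transcription factor of blood progenitors, mast cells and endothelium (chr6:88193891-88207032), had 0, 1, 0 and 1 UMIs in LPS p16-negative and 2, 17, 31 and 54 UMIs in PBS p16-positive libraries. In CPM the PBS p16-positive libraries were at 125 to 172, with only 2 UMIs behind the value of replicate 1. The log2 fold change was -5.49 (SE 0.84, edgeR adjusted p = 0.00111), with a pooled ratio of 56.9 (95% counting interval 15.4 to 476). Itga7, an integrin chain that binds laminin, had no UMI in the LPS p16-negative libraries and 0, 8, 9 and 16 in PBS p16-positive, so it was at least 12.03-fold lower when 3 UMIs are allowed over the group (edgeR adjusted p = 0.0427). Arl4d, a small GTPase, had 1 UMI against 47 (pooled ratio 51.4, interval 8.79 to 2073, adjusted p = 0.0144), and Uaca, a regulator of apoptosis, 1 against 33 (36.1, interval 6.04 to 1469, adjusted p = 0.0157). Mapk11, a p38 kinase, had 1 UMI against 32 (35, interval 5.85 to 1425, adjusted p = 0.0459), Rgs9, a regulator of G protein signalling, 2 against 43 (23.5, interval 6.13 to 200, adjusted p = 0.0366) and Hspg2, the basement membrane proteoglycan perlecan, 2 against 37 (20.2, interval 5.22 to 173, adjusted p = 0.0485). Ppp1r14a, an inhibitor of myosin phosphatase in smooth muscle, had 2 against 47 (25.7, interval 6.73 to 218, adjusted p = 0.0264) and C130074G19Rik 3 against 63 (23, interval 7.51 to 114, adjusted p = 0.0467). Gata2 kept its call in all 8 omissions. The other 8 genes lost theirs both without LPS p16-negative replicate 4 and without PBS p16-positive replicate 2. In the first case the adjusted p was 0.16 for Itga7, 0.116 for Arl4d, 0.124 for Uaca, 0.197 for Mapk11, 0.154 for Rgs9, 0.171 for Hspg2, 0.144 for Ppp1r14a and 0.187 for C130074G19Rik. Itga7, Mapk11, Rgs9, Hspg2 and C130074G19Rik also lost theirs without LPS p16-negative replicate 2 and PBS p16-positive replicates 1 or 4, each left out alone. With the Itga7 bound in place of its fitted value the median of the 92 lower genes, -3.47, did not move.

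Gpx3, Klf2 and Nr4a1 were among the more abundant lower genes. Gpx3, the secreted glutathione peroxidase (chr11:54902854-54910387), had 109, 92.9, 60.1 and 39.8 CPM in LPS p16-negative and 2958, 3174, 848 and 1170 CPM in PBS p16-positive libraries (-4.49, SE 0.80, edgeR adjusted p = 0.00409). It was the only one of 20 tested NRF2 target and iron storage genes to pass. Klf2, a zinc finger factor that keeps endothelium and lymphocytes quiescent (chr8:72319062-72321654), had 79.2, 78.6, 54.1 and 64.7 CPM against 649, 596, 419 and 948 CPM (-2.98, SE 0.46, edgeR adjusted p = 0.00111). Nr4a1, an orphan nuclear receptor induced early upon stimulation, had 178, 35.7, 90.1 and 137 CPM against 577, 414, 419 and 860 CPM (-2.09, SE 0.47, edgeR adjusted p = 0.016). None of these ranges overlapped. Klf2 and Nr4a1 were the 2 members to pass among 21 immediate early genes, against 2% of all genes called lower. Of the 21 genes 19 had a negative value (median -0.81), and the summed level of that list was 2451 to 4716 CPM against 6132 to 8533 CPM. Jun (-1.63, adjusted p = 0.0536) and Egr1 (-1.79, adjusted p = 0.0751) missed the threshold and passed with the replicate block (adjusted p = 0.0162 and 0.0174), while Jund, an AP-1 subunit, was at -0.05 (adjusted p = 0.995) with a sign that changed between settings. Nr4a1 lost its call without LPS p16-negative replicate 4 (adjusted p = 0.0769), replicate 2 of that group or PBS p16-positive replicate 4. The immediate early genes also respond to handling of cells and are expressed by endothelium, and neither part was tested.

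Markers of other lung cells were lower in the same libraries, with larger spread. Of 10 tested fibroblast genes 2 passed: Mgp, the matrix Gla protein, with 14.6 ± 7.6 against 301 ± 256 CPM (-3.96, edgeR adjusted p = 0.0138), and Inmt, a methyltransferase of lung stroma, with 21.4 ± 20.6 against 209 ± 150 CPM (-3.40, adjusted p = 0.034). The median of the list was -2.68 and 6 members passed with the block. Of all genes tested 2% were called lower, and 5.9% with the block. The call for Mgp was lost without LPS p16-negative replicate 4 (adjusted p = 0.0894) and without PBS p16-positive replicate 2 (0.067). That for Inmt was lost in 5 of the 8 omissions (up to 0.155, without PBS p16-positive replicate 2), LPS p16-negative replicates 2, 3 and 4 and PBS p16-positive replicate 4 being the others. Secretory airway genes had a median of -3.21 over 18 genes, yet 0 passed, against 14 with the block. Scgb1a1, the club cell secretoglobin, ranged from 266 to 5775 CPM in LPS p16-negative and from 2157 to 223000 CPM in PBS p16-positive libraries, which overlapped (-4.33, edgeR adjusted p = 0.152, with the block 0.00416). The mucin Muc5b was at -5.01 (adjusted p = 0.105, with the block 0.000298). Without PBS p16-positive replicate 1 the median of the list was -2.49.

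Other epithelial lists were also lower on balance, without a call. For comparison, 5.9% of all genes tested were lower with the block, and 2108 of 4592 values were negative. General epithelial genes had a median of -1.97 (18 genes, 0 called, 10 lower with the block), with Krt18, a keratin, at 2.49 to 79.2 CPM against 102 to 728 CPM (-3.08, edgeR adjusted p = 0.121, with the block 0.000797). All 14 tested genes of ciliated cells had negative values (median -1.82, 0 called, 6 with the block), among them Foxj1, the transcription factor of motile cilia, at 12 to 157 CPM against 176 to 728 CPM (-2.10, adjusted p = 0.257, with the block 0.00176). Type I alveolar genes had a median of -2.24 (11 genes, 0 called, 7 with the block) and type II genes of -0.54 (21 genes, 0 called, 4 with the block). The type II surfactant gene Sftpc had 19000, 3522, 1640 and 1533 CPM against 8369, 43100, 21800 and 26740 CPM, so that LPS p16-negative replicate 1 lay inside the range of the other group (-1.74, adjusted p = 0.356). Ranges of the summed lists were 210 to 1040 against 997 to 5122 CPM for ciliated, 1065 to 12340 against 4759 to 280700 CPM for secretory and 5808 to 28790 against 18830 to 56140 CPM for type II genes.

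Single genes of leukocyte lists passed, where 2% of all genes tested were called lower and 0.261% higher. With the block these shares were 5.9% and 2.07%. Csf3r, the receptor of granulocyte colony-stimulating factor, fell by 2.87 on the log2 scale (1, 3, 1 and 4 UMIs against 1, 12, 12 and 55, edgeR adjusted p = 0.00994), as 1 of 19 tested neutrophil genes (median -1.64, 8 lower with the block). Ly6d, a B lineage marker, fell from 164 ± 93.6 to 33.9 ± 12.5 CPM (adjusted p = 0.0427; 8 genes, median -1.55), and Nkg7, a granule protein of NK and cytotoxic T cells, had 2 against 31 UMIs (pooled ratio 17, 95% counting interval 4.32 to 146, adjusted p = 0.0361; 9 T and NK genes, median -1.68). Ace, which in the lung is an enzyme of endothelium and is on the monocyte and interstitial macrophage list, fell by 1.90 with 149, 143, 114 and 182 CPM against 794, 698, 439 and 766 CPM (edgeR adjusted p = 0.0126). That list ran the other way, with 12 of 16 values positive, a median of 0.63, 1 gene called higher (Pf4) and 2 lower (Ace and Nr4a1), and 5 higher and 2 lower with the block. The calls were lost without LPS p16-negative replicate 4 for Csf3r (adjusted p = 0.0769) and Ace (0.0609), and for Ace also without PBS p16-positive replicate 2 (0.0526). Ly6d and Nkg7 lost theirs in 6 of the 8 omissions, all but PBS p16-positive replicates 1 and 3, with adjusted p up to 0.191 and 0.24. Of the 92 lower genes 27 stood on any of the lists first drawn up and 65 on none, among them Impdh1, of guanine nucleotide synthesis (-3.66, adjusted p = 0.00111), Adgrl4, an adhesion receptor of endothelium (-3.75, adjusted p = 0.00569), and Septin1 (1 against 42 UMIs, pooled ratio 46, interval 7.81 to 1857, adjusted p = 0.00807), which were chosen after their values were seen.

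**Figure D4:**
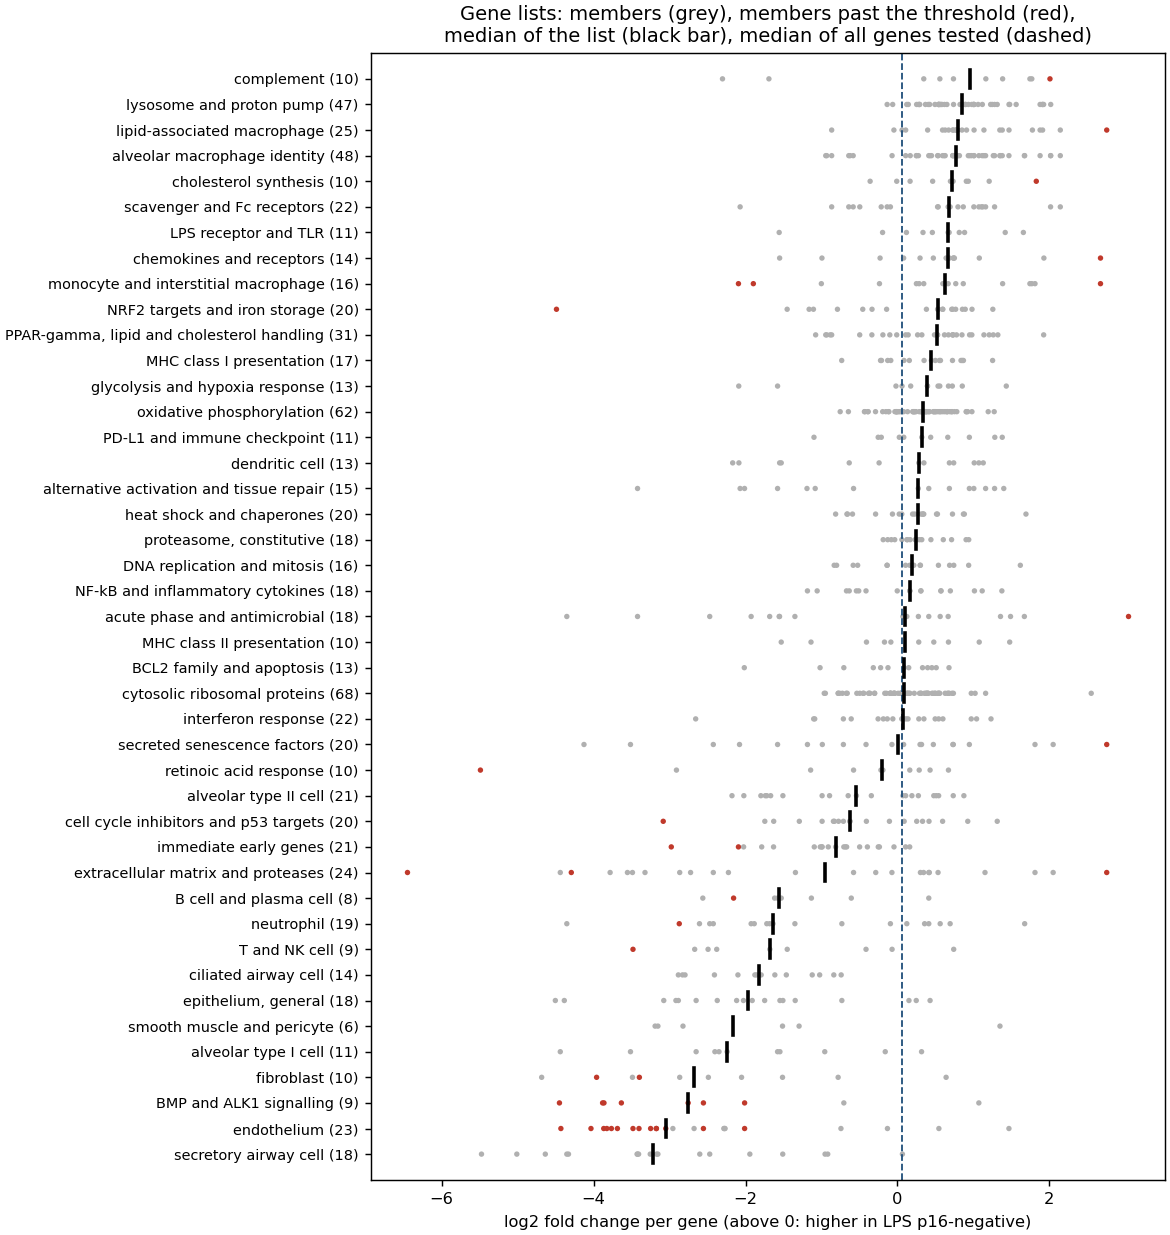
Log2 fold change (LPS p16-negative against PBS p16-positive) of the tested members of gene lists, 1 point per gene, with called genes marked and the median of each list as a line. Endothelial, fibroblast and airway lists lie to the left of 0 and the lysosome, AM identity and lipid-associated lists to the right, against a median of 0.065 for all genes.

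Macrophage gene lists ran in the opposite sense, with 1 call in the lysosome, AM identity and lipid-associated lists. Among all genes tested 0.261% were called higher, 2.07% were higher with the block and 2484 of 4592 values were positive. Of 47 lysosome and proton pump genes 45 had a positive value (median 0.85), 0 passed and 8 passed with the replicate block, and the summed level was 86590 to 112900 CPM in LPS p16-negative and 16810 to 77410 CPM in PBS p16-positive libraries, with no overlap. These were 43670 to 83990 CPM in PBS p16-negative and 39220 to 106600 CPM in LPS p16-positive libraries. The 43670 CPM was that of the shallow PBS p16-negative replicate 1. Ctsd, the protease cathepsin D and the most abundant of them, had 34400, 40140, 73730 and 38530 CPM against 3319, 10790, 30530 and 15920 CPM, separate between groups but not called (1.91, SE 0.66, edgeR adjusted p = 0.142, with the block 0.017). Psap, the precursor of saposins, was at 1.91 with overlapping ranges (edgeR adjusted p = 0.0745, with the block 0.0133) and Hexa, a subunit of hexosaminidase, at 1.56 with separate ranges (adjusted p = 0.0891, with the block 0.0154). The summed lysosomal level moved against the non-macrophage markers above, and since CPM adds up to a fixed total, how far either moved the other was not tested.

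AM identity genes had a median of 0.77 (48 genes, 41 positive, 0 called, 7 higher with the block) and lipid-associated macrophage genes of 0.80 (25 genes, 23 positive, 1 called, 7 with the block), the call being Mmp14. The block gave 2.07% of all genes tested as higher and 5.9% as lower. Trem2, a lipid receptor on both lists, had 14, 41, 12 and 224 UMIs against 0, 7, 15 and 30 UMIs (2.14, edgeR adjusted p = 0.0745, with the block 0.00434), and Cd63, a tetraspanin of late endosomes, 1202 ± 520 against 342 ± 187 CPM (1.88, adjusted p = 0.0751, with the block 0.0109). The groups were separate for Cd63 and overlapped for Trem2. Complement genes had a median of 0.95 (10 genes), with Cfb called. With the block 5 were higher and 2 lower, the lower ones being Clu, clusterin (-2.30, edgeR adjusted p = 0.314, with the block 0.00435), and C4b (-1.69, adjusted p = 0.377, with the block 0.0255). C1qa, a chain of the first component, was at 555, 1386, 222 and 1627 CPM against 144, 435, 496 and 438 CPM (1.38, edgeR adjusted p = 0.208, with the block 0.0423). In a list of cholesterol synthesis genes drawn up after seeing values, Mvd alone of 10 passed (median 0.71, 8 positive, summed level 1667 to 2179 against 793.6 to 1488 CPM). Hmgcs1, of the first steps of that pathway, was at 1.21 (adjusted p = 0.313).

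General LPS response lists had few calls, where 0.261% of all genes tested were called higher and 2% lower. These shares were 2.07% and 5.9% with the block. NF-kB and inflammatory cytokine genes had a median of 0.16 (18 genes), interferon response genes of 0.071 (22 genes), MHC class II genes of 0.097 (10 genes) and LPS receptor and Toll-like receptor genes of 0.67 (11 genes), and none of these had a called member. With the block 1 MHC class II list member passed, the protease Ctss (1.48, edgeR adjusted p = 0.106, with the block 0.0231). Chemokine genes had a median of 0.66 (14 genes) with Pf4 called. Below the threshold stood Irak2, a kinase of Toll-like receptor signalling, with 129, 143, 120 and 132 CPM against 0, 40.4, 62 and 50.8 CPM (1.66, edgeR adjusted p = 0.0539, with the block 0.0186), and the chemokine Ccl9 (1.93, adjusted p = 0.0552, with the block 0.0119). Ifitm3, an interferon-induced membrane protein, ran lower at 19.8 ± 1.4 against 185 ± 131 CPM (-2.66, adjusted p = 0.0537, with the block 0.00225). Acute phase and antimicrobial genes had a median of 0.098 (18 genes, 10 positive, 8 negative, 1 called), and 2 were higher and 4 lower with the block. Beside Saa3 they included S100a9, a calprotectin subunit of neutrophils, with -1.93 (adjusted p = 0.0882, with the block 0.0218), and the lysozyme Lyz2, with 1.36 (adjusted p = 0.335).

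Of the genes tied to p16, senescence and the immune checkpoint, Ccnd1 and Mmp14 passed. Across all genes tested 2.26% were called, and 2.07% were higher and 5.9% lower with the block. In the list of cell cycle inhibitors and p53 targets 1 of 20 tested genes passed. This was Ccnd1, the cyclin D1 partner of the kinases that p16 inhibits, which is not itself an inhibitor. It had 32.2 ± 26.7 against 293 ± 179 CPM (-3.08, SE 0.81, edgeR adjusted p = 0.0427). Ccnd1 was called without LPS p16-negative replicate 1 and PBS p16-positive replicates 3 or 4, and not in the other 5 omissions, with an adjusted p of 0.241 without PBS p16-positive replicate 2. Cdkn1a, which encodes p21, had 69.3, 379, 216 and 336 CPM against 577, 101, 217 and 224 CPM (0.41, SE 0.48, adjusted p = 0.819). Among 20 secreted senescence factors Mmp14 passed (median 0.004), while the insulin-like growth factor binding protein Igfbp3 had 1 against 29 UMIs (pooled ratio 31.7, 95% counting interval 5.26 to 1296, edgeR adjusted p = 0.0642, with the block 0.0176) and the matrix protein Fn1 was at 1.81 (adjusted p = 0.0769, with the block 0.0119). With the block 2 of these factors were higher and 4 lower, as were 1 and 1 of the cell cycle and p53 genes, and 1 of 11 checkpoint genes was higher (Lgals3, 1.38, adjusted p = 0.356, with the block 0.0451). Cd274, which encodes PD-L1, had 3, 8, 10 and 61 UMIs against 0, 2, 15 and 33 UMIs, overlapping ranges (0.66, SE 0.64, adjusted p = 0.765), and Bcl2l1, of the anti-apoptotic BCL2 family, was at -0.22 (SE 0.40, adjusted p = 0.914). For these genes a p above the threshold does not show that the groups were alike. Retinoic acid response genes had 1 call, Gata2, among 10 (median -0.20).

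Split into its steps, the difference of the higher genes lay mostly in the LPS step, while that of the lower genes lay in both. LPS p16-negative and PBS p16-positive libraries are linked through PBS p16-negative and through LPS p16-positive libraries, and the steps share libraries with the comparison, so their values are given side by side without a test of likeness. On the first route PBS p16-negative replicate 1 was shallow, with 15755 UMIs, where 3 UMIs equal 190 CPM. It stood at -97.3 on the first principal component. How far that library moved the medians of the steps was not tested. For the 12 higher genes the median was 2.22 for LPS against PBS among p16-negative and 0.29 for p16-negative against p16-positive among PBS libraries, and the LPS step was the larger in 10 of 12. On the other route it was 0.46 for p16-negative against p16-positive among LPS and 2.12 for LPS against PBS among p16-positive libraries. For the 92 lower genes these medians were -1.78 and -1.71 on the first route and -1.54 and -1.88 on the second, and the p16 step was the larger in 49 of the 92 on the first route and in 40 on the second. All 92 were negative in both steps of the first route. The genes had been chosen on the sum of the steps, so a shared sign in both is partly built in. Over all genes tested the medians were 0.103 and -0.039 on the first route, and -0.017 and 0.117 on the second. On the second route 88 were negative in the p16 step and 92 in the LPS step.

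Few genes passed in any step on its own. LPS against PBS among p16-negative libraries had 1 call (0.0218% of genes), Mmp14 (3.21, edgeR adjusted p = 0.0387), and among p16-positive libraries 3 calls (0.0653%): Stac2 (3.04, adjusted p = 0.0257), Impdh1 (-2.61, adjusted p = 0.0374) and Prx, periaxin, known from Schwann cells and lung capillaries (-4.10, adjusted p = 0.018). The p16 step had 0 calls among PBS (0%) and 0 among LPS libraries (0%), with 264 and 232 genes at an unadjusted p under 0.05, and DESeq2 and limma voom also gave 0 in both. The interaction of treatment and p16 had 0 calls (0%) by edgeR, DESeq2 and voom, with 50 genes at an unadjusted p under 0.05 by edgeR. About 230 genes would reach that p in each contrast if none differed. The LPS step had 203 such genes among p16-negative and 302 among p16-positive libraries. With the replicate block the steps had 15 and 115 calls for LPS among p16-negative and p16-positive libraries and 16 and 27 for p16 among PBS and LPS libraries, against 0 for the interaction.

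Means in the linking groups show the routes of single genes. Mmp14 had 51.4 ± 51.1 CPM in PBS p16-negative and 309 ± 89 CPM in LPS p16-positive libraries, beside 66.5 CPM in PBS p16-positive and 452 CPM in LPS p16-negative, so both LPS groups had the higher means in either p16 fraction. Saa3 had 82.2 ± 71.7 CPM in PBS p16-negative and 1181 ± 1080 CPM in LPS p16-positive libraries, beside 112 and 923 CPM. Egfl7 had 488 ± 264 and 294 ± 260 CPM in these groups, between the 94.3 CPM of LPS p16-negative and the 1889 CPM of PBS p16-positive libraries. Id3 had 19.9 ± 20.9 CPM in PBS p16-negative and 40.9 ± 37.1 CPM in LPS p16-positive libraries, nearer to the 7.98 CPM of LPS p16-negative than to the 171 CPM of PBS p16-positive. Klf2, with 240 ± 107 and 227 ± 116 CPM, lay between its 69.1 and 653 CPM. Ace differed from these, with 283 ± 238 CPM in PBS p16-negative and 146 ± 39.4 CPM in LPS p16-positive libraries, where the p16 step among LPS libraries was 0.07.

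**Figure D5:**
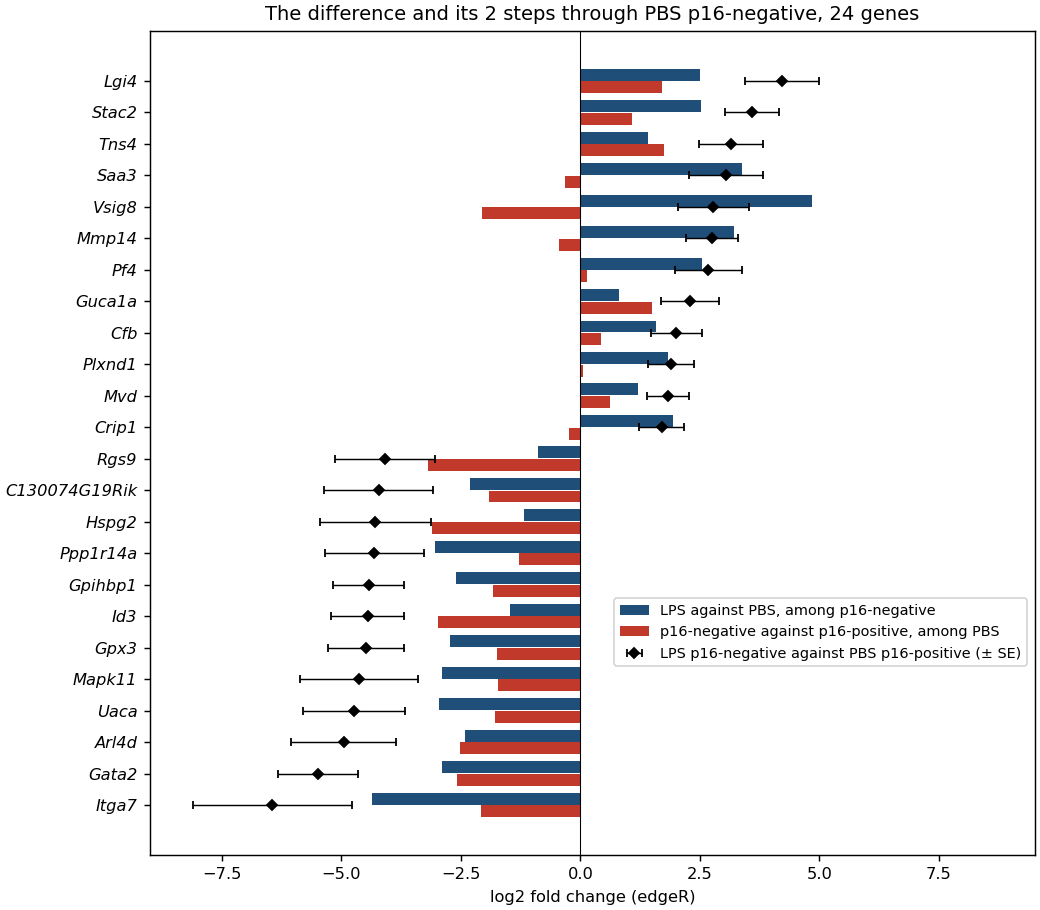
Log2 fold change of LPS p16-negative against PBS p16-positive (diamonds, bars of 1 SE) and its steps through PBS p16-negative libraries (bars) for the 12 genes called higher and 12 of the genes called lower. The LPS step is the longer bar in 10 of the 12 higher genes, while both steps point to the left in all of the lower genes. The genes were chosen on the sum of these steps, and replicate 1 of PBS p16-negative was shallow.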

How the data were processed

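Sorted AM samples were profiled by bulk MARS-seq. The authors mapped reads to mm10 with their UTAP pipeline, kept unique 3′ alignments to RefSeq genes and deposited UMI counts per gene for the 16 libraries. They also deposited counts divided by DESeq2 size factors (a signal) and regularised log2 values, which were not used here, and columns of their own comparisons (fold changes and p-values), which were not used. Raw UMI counts were fitted in R 4.3.3 with edgeR 4.0.16 (TMM scaling, quasi-likelihood test) as 4 group means over 16 libraries, on genes with at least 30 UMIs over the 8 libraries compared, with Benjamini-Hochberg adjustment at 0.05. Limma 3.58.1 (voom) and DESeq2 1.42.0, other filters and scalings, single libraries left out and a replicate block were alternatives. CPM values are UMIs scaled to a common library total. Counting intervals (95%, exact) and the 3-UMI floor cover counting error only. The code was tested on simulated data.

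Same-numbered LPS p16-negative and PBS p16-positive libraries deviated together (r = 0.103, 0.151, 0.106 and 0.26), which was taken as pairing, although the labels do not say what a number shares. From replicate 1 to 4 the UMI totals also rose in both groups (100960, 139976, 166495 and 401857 against 13861, 98930, 193511 and 433490). Whether depth gave these correlations was not tested. The pairing was weak for replicate 1: LPS p16-negative 1 with PBS p16-positive 2 had r = 0.105, and among LPS libraries p16-negative 1 had r = 0.033 with p16-positive 1 and 0.243 with p16-positive 2. Same-numbered p16 fractions had r = 0.173, 0.211 and 0.662 in LPS replicates 2 to 4. In PBS replicates 1 to 4 they had r = 0.284, 0.166, 0.365 and 0.34. The p16 steps were fitted on group means or with a block shared by both treatments, not with pairs within a treatment. Named genes were the 12 largest called differences in each direction among genes with a mean of at least 20 CPM over the 8 libraries, 8 genes taken by name (Cdkn2a, Cdkn1a, Cd274, Siglecf, Itgax, Ptprc, Saa3 and Bcl2l1), plus the most abundant member of each list and no more than 4 of those with the smallest p. Others were chosen after their values were seen. Members and lists were chosen with earlier results of these data known, and the BMP and cholesterol lists after their values were seen.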

Additional observations from a re-analysis of the deposited data

Results flagged for a closer look

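Sets of 4 libraries in which 1 library stood apart by Dixon's test numbered 30 of the 308 examined (9.74%), where chance gives about 1 in 20. The sets are not independent, since 1 library gives several. A gene with UMIs in only 1 library of a group always stands apart, so the rate of 1 in 20 does not hold for genes near 0. Among the sets below this was so for Arl4d, Uaca, Mapk11, Igfbp3, Elf3, Timp3 and Nkg7 in LPS p16-negative. In LPS p16-negative replicate 1, which had 8 of them, Acvrl1 was at 158 CPM (others 78.1 to 85.7), Sftpc at 19000 CPM (1533 to 3522) and Ltf, lactoferrin, at 79.2 CPM (2.49 to 7.14). In that library the summed lists of type II cells (28790 CPM, others 5808 to 9441), type I cells (882 CPM, others 156 to 279) and general epithelium (3615 CPM, others 1406 to 1736) were also high. Mapk11 and Elf3 were at 9.9 CPM there, against 0 in the others.

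LPS p16-negative replicate 3 also had 8. Ctsd was at 73730 CPM (others 34400 to 40140), Car4 at 4535 CPM (2199 to 2279) and Tgfb1 at 2132 CPM (1227 to 1367). Its BCL2 family list was low at 1640 CPM (2123 to 2172), as was its BMP and ALK1 list at 198 CPM (372 to 406), and Arl4d, Uaca and Igfbp3 were each at 6.01 CPM against 0. In replicate 4 of that group Saa3 stood at 2643 CPM (198 to 522), Ctss, cathepsin S, at 2476 CPM (1020 to 1143), the MHC class II list at 18310 CPM (7260 to 9016) and Nkg7 at 4.98 CPM against 0. In replicate 2 Timp3 was at 7.14 CPM against 0.

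In the shallow PBS p16-positive replicate 1 Scgb1a1 was at 223000 CPM (2157 to 28770), Epas1 at 2886 CPM (543 to 829) and Hmgcs1 at 289 CPM (93 to 101), while Itgax (85.4 to 101 in the others) and Trem2 (69.2 to 77.5) had 0 CPM, below what 3 UMIs could show there. Saa3 was at 207 CPM (72.1 to 90) and Lgi4 at 15.5 CPM (0 to 2.31) in replicate 3, Hp, haptoglobin, at 6429 CPM (1040 to 1587) in replicate 2, and the T and NK list at 1269 CPM (532 to 577) in replicate 4. The cause of these differences was not tested.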

How the results depend on the processing

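The count of 104 genes was 272 when the 8 libraries alone were fitted, 366 with the replicate block and 68 without both PBS replicate 1 libraries, and ranged from 22 to 128 when single libraries were left out. The fit of 8 libraries kept 11 of the 12 higher and all 92 lower genes. Among the steps, LPS in p16-negative had 12 genes by DESeq2, 15 with the block and 0 without PBS replicate 1, and LPS in p16-positive 23 by DESeq2, 43 by voom, 5 with filterByExpr and 115 with the block. The p16 step had 16 genes with the block among PBS and 27 among LPS libraries. Voom gave 41 higher and 111 lower genes and the block 95 and 271, against 12 and 92. Without scaling the median log2 fold change of all genes moved from 0.065 to -0.181, with 8 higher and 142 lower genes. Of the 51 called named genes none changed sign in 1009 comparisons, and the call was lost in 212. Their kept sign is partly built in, since they were chosen for passing and the settings share libraries. Jund, not called, went from -0.05 to 0.02 with all genes of at least 1 UMI, to 0.098 with the block, and between -0.377 and 0.211 without single libraries. The causes were not tested. Depth limited the shallow PBS p16-positive replicate 1 above all, where 3 UMIs equal 216 CPM, against 6.92 in replicate 4.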
